A study of Mus musculus with 8 samples.

Results

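The transcripts of Cdx2 null mouse embryos were set against those of wild type embryos at 7/8 somites, the later of the 2 stages in the series. The comparison rests on 4 arrays of 8 in the series, chosen by their titles: an original hybridization, its dye swap, and a technical repeat of both. Each array held RNA of a pool of Cdx2 null mutant embryos and of a pool of wild type embryos, strain C57Bl6J/CBA, in 2 colours, and all ratios below are null over wild type. The tissue was the posterior end of the embryo, cut behind the youngest somite and in front of the allantois, and 20 embryos entered each pool. The 4 arrays therefore measured the same 2 pools. Standard deviations (SD) below are those of the 4 arrays, they are technical, and with 1 pool per genotype no p-value can be given. The allele, and how null embryos were brought to this stage, are not described in the labels. Arrays 1 and 3 carried the null pool in Cy3 and arrays 2 and 4 in Cy5. Arrays 1 and 2 were the original pair and arrays 3 and 4 the technical repeat.

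Cdx2 and its paralogues Cdx1 and Cdx4 encode caudal-type homeodomain transcription factors. They act in the growth zone at the posterior end of the embryo, where new tissue of the trunk and tail is laid down, and are known for activating central and posterior Hox genes and for sustaining Wnt signalling there. Cdx2 is also a determinant of intestinal endoderm and of trophoblast. In a bulk pool such as these, fewer cells of a type and less RNA per cell cannot be told apart.

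Of 15282 genes measured, 40 were higher in the null pool by at least 2-fold with the same sign on all 4 arrays (0.262% of genes), and 39 were lower (0.255%), 79 in all (0.517%). These are the genes said to rise or fall below. The brightest probe stood for each gene, and by it 3 genes fell by at least 4-fold and none rose that much. Another 6 genes passed 2-fold with a dimmer probe only, 2 higher and 4 lower, and 1 of these probes, for Hoxb9, passed 4-fold. The median over all genes was 0.00 on the log2 scale, the SD between arrays had a median of 0.11, and 402 genes passed 1.5-fold. Over all genes 22% were positive and 21.1% negative on all 4 arrays, the shares to set beside the list counts below. All lists and their members were chosen with earlier results of these data known, so those counts describe the lists and test nothing. Centring each array on its median instead of by loess moved the split to 63 higher and 30 lower genes, 67.7% higher against 50.6%, with the median of all genes at 0.08. With the scanner software's processed signals, 163 genes were higher and 119 lower, and all 79 genes were among them. With no background correction, 27 genes were higher and 26 lower, and only 53 of the 79 genes kept their call.

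The probe for LOC100040381, a predicted transcript with no known role (chromosome 13, 74949019 to 74949077, build mm9), gave the lowest ratios among the probes used, -2.64, -2.75, -2.69 and -2.77 on arrays 1 to 4. It read within 0.13 of the same value on every array and was well above background in both pools. Cxcl12, the chemokine that guides cells through the receptor Cxcr4 (probe on chromosome 6, 117131227 to 117131286, mm9), read -2.63, -2.36, -2.72 and -2.28, a 5.66-fold fall. The Cy3 arrays gave the lower values of Cxcl12, and a second, dimmer probe of it read only -0.84. Nepn, the gene of nephrocan, a protein expressed in early gut endoderm, read -2.21, -2.09, -2.23 and -2.08, a 4.45-fold fall.

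Sparcl1, a secreted glycoprotein of the extracellular matrix, fell by 1.79 ± 0.10 on the log2 scale, and its second probe read -1.86. Saa3, an acute phase serum amyloid gene, read between -1.73 and -1.66, came up above background on none of the 4 null channels, and was at least 2.97-fold lower there. The other large falls were of genes with unlike roles. Among them were Rab32, a small GTPase (-1.48 ± 0.10), Rgn, a calcium-binding protein also called regucalcin (-1.46 ± 0.08), Fn3k, a kinase that repairs glycated proteins (-1.35 ± 0.15), Krtap17-1, a keratin-associated protein (-1.37 ± 0.03, with the null pool above background on 2 of 4 arrays), and Tmem158 (-1.29 ± 0.09). The splicing factor gene Prpf19 had a wider spread, with -1.23 and -1.42 on the arrays where the null pool carried Cy3 and -1.84 and -1.68 on the others.

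Krt23, a keratin gene of epithelia, rose most, with 1.90, 1.76, 1.91 and 1.70 on arrays 1 to 4, a 3.52-fold rise. Prl4a1, a prolactin family gene of the placenta, read 1.73, 1.88, 1.68 and 1.92. Lratd1 rose by 1.78 ± 0.28. Every array of these genes lay above 2-fold, and those of Lratd1 were the most spread. Tbx1, a T-box transcription factor of the pharynx and head mesoderm, read 1.54 to 1.71, with wild type well above background on only 2 of 4 arrays, so the size of its rise is uncertain. The same holds for Minar2 (1.41 ± 0.19). Further large rises were of Smpd3, a neutral sphingomyelinase (1.41 ± 0.10), Gas6, a ligand of the TAM receptor kinases (1.07 to 1.35), and Gulo, an enzyme of vitamin C synthesis (1.07 to 1.27).

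**Figure D1:**
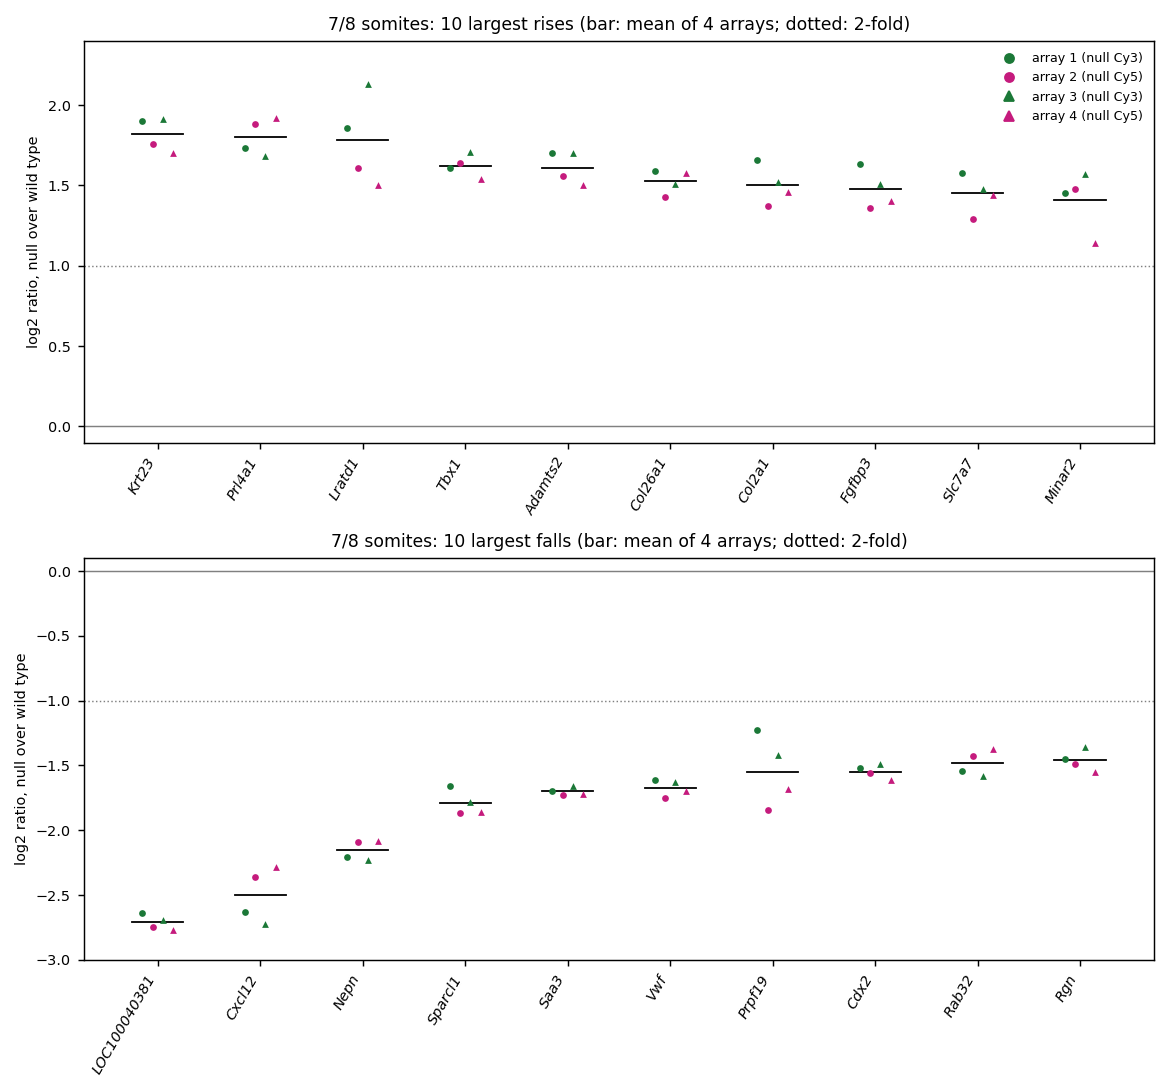
Log2 ratios of null over wild type on each of the 4 arrays at 7/8 somites for the 10 largest rises (top) and the 10 largest falls (bottom). Colour gives the dye of the null pool, circles are the original pair, triangles the technical repeat, and bars the mean. Every array of Krt23 and Prl4a1 lies at 1.68 or above, and every array of LOC100040381, Cxcl12 and Nepn at -2.08 or below.

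The mutated gene came next. Cdx2 read -1.52, -1.56, -1.49 and -1.61, a mean of -1.55 ± 0.05 or a 2.92-fold fall, and its signal was well above background in the null pool on all 4 arrays. Its probe lies on chromosome 5 at 148112547 to 148112606 (mm9). The sources used here do not tell which part of the gene the mutant allele lacks, so the signal that remained cannot check the genotype. Cdx4 read between -0.61 and -0.46 (mean -0.55 ± 0.07) and stayed under 2-fold. Cdx1 was higher in the null pool on every array, with 0.39, 0.45, 0.37 and 0.41. The paralogues thus lay on opposite sides of 0, by differences larger than their array spread.

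No gene near Cdx2 passed 2-fold. Within 5 Mb of its probe 81 genes were measured, none of them called, with a median of 0.01, and their ratios ran from -0.53 (Arpc1b, a subunit of the actin-branching complex) to 0.60 (Tmem130). Within 10 Mb there were 146 genes, again with none called.

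Hox genes encode the homeodomain factors that give position along the body axis, and their group number follows their order in the cluster. Of groups 5 to 9, 14 of 15 genes were measured: 2 fell, 9 were negative on all 4 arrays (21.1% over all genes) and 2 were positive, with a median of -0.34. Hoxa7 fell by 1.27 ± 0.09 and Hoxc9 by 1.25 ± 0.11. Negative but short of 2-fold were Hoxa9 (-0.91 ± 0.14) and Hoxc6 (-0.76 ± 0.34). The probes of Hoxb9 disagreed. The brighter one (chromosome 11, 96137065 to 96137124, mm9) read -1.08, -0.78, -1.09 and -0.70, a mean of -0.91 ± 0.20. The dimmer one (96137748 to 96137807) read -3.19, -3.04, -3.04 and -2.96, lower on every array than any probe used here. At 4/5 somites they were close, with -1.77 and -1.86. Hoxb9 was thus negative on all arrays by both probes, with a size at 7/8 somites that depends on the probe. Hoxa5 (0.74 ± 0.38) and Hoxb5 (0.40 ± 0.18) were the positive ones. Hoxa5 read 0.34 and 0.48 on the arrays with the null pool in Cy3, and 1.01 and 1.11 on those with it in Cy5.

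Of groups 10 to 13, 4 of 12 genes were measured and all 4 were negative on all arrays. Hoxa10 fell by 1.13 ± 0.09. Hoxa11 read -0.66 ± 0.18 and Hoxd10 -0.32 ± 0.12. Hoxd13, the most posterior one measured, read -0.91 ± 0.18, was above background on no array in the null pool, and was at least 1.65-fold lower there. Of groups 1 to 4, all 12 genes were measured with a median of -0.02, 3 of them positive and 3 negative on all arrays. Hoxd4 was the 1 member called: it read -1.54, -1.07, -1.53 and -0.98, with the lower values on the Cy3 arrays. Among the cofactors that bind DNA with Hox proteins, none of 10 was called. Meis1 (0.57 ± 0.07) and Meis2 (0.59 ± 0.20) were positive on all arrays, and Meis3 was negative (-0.42 ± 0.18).

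**Figure D2:**
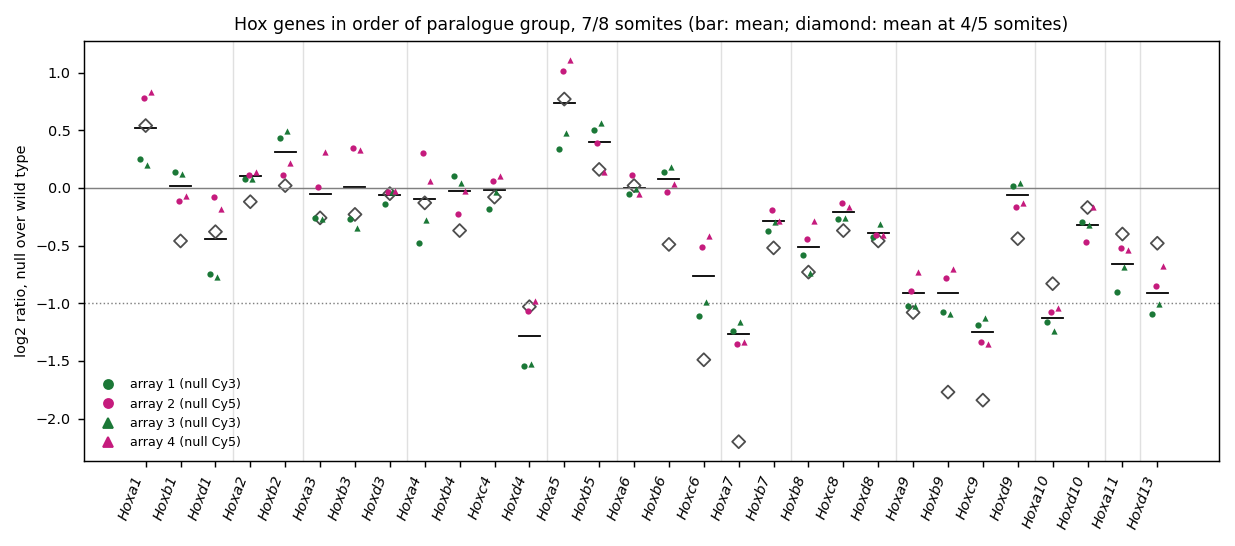
Log2 ratios of null over wild type of the 30 measured Hox genes at 7/8 somites, ordered by paralogue group, with each array as a point, the mean as a bar and the 4/5 somite mean as a diamond; the dotted line is 2-fold, and each gene has its brightest probe (the other probe of Hoxb9, at -3.06, is not drawn). Means of groups 1 to 4 scatter around 0 except that of Hoxd4, and 13 of the 18 genes of groups 5 to 13 lie below 0 on every array.

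RefSeq promoters (assembly GRCm38.p6, 250 bases before to 50 after a gene's start) were found for 22 of the 39 genes that fell, 24 of the 40 that rose and 10610 of all genes. They were searched on both strands for TTTATG, letters known from the sites that caudal-type homeodomain proteins prefer. The letters occurred in the promoters of 6 genes that fell (27.3%), of 1 that rose (4.17%) and of 903 over all genes (8.51%). The longer TTTATGG, which contains TTTATG, occurred in 3 (13.6%), 0 and 243 (2.29%). Some genes have several promoters, and over promoters the shares for TTTATG were 22.2%, 3.23% and 7.01%. A match is a description of the sequence, not a binding site, and these shares were not tested. The stretches below, 120 of the 250 bases before the start, show 4 of the 6 genes that fell and the 1 that rose (Prpf19 and Krtap17-1 also match and are not printed), with TTTATG or its complement CATAAA in capitals. They are Hoxa7 (chr6:52218704-52218823, minus strand), Hoxd4 (chr2:74721858-74721977, plus strand), Nepn (chr10:52391358-52391477, plus strand), Fabp1 (chr6:71199734-71199853, plus strand) and Krt23 (chr11:99493121-99493240, minus strand), all in GRCm38.p6 and read along the gene's strand. Counted from -1 for the base just before the start, the leftmost letter of a match lay at -236 and -173 in Hoxa7, -45 in Hoxd4, -210 in Nepn, -88 in Fabp1 and -32 in Krt23. Further matches, at -226 in Fabp1 and after the start in Hoxd4, lie outside the stretches shown.
Hoxa7: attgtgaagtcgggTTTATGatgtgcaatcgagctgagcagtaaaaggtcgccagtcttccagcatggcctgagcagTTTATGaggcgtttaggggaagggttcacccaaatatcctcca
Hoxd4: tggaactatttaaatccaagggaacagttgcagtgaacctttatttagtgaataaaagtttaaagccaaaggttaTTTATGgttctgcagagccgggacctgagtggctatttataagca
Nepn: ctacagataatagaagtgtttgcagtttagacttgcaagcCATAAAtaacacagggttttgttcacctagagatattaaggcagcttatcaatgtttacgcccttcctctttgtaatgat
Fabp1: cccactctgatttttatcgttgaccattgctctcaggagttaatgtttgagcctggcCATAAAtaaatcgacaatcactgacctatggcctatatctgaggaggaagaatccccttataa
Krt23: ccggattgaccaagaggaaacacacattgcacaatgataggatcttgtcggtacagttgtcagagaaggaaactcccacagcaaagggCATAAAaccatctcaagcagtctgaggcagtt

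Gut endoderm genes held several of the largest falls beside genes near 0 and above it. Of 30 measured genes, 5 fell and none rose, and the median was 0.04. On all 4 arrays 13 were positive (22% over all genes) and 10 negative (21.1%). Besides Nepn and Cdx2 itself, the falls were those of the peptide hormone genes Cck, which encodes cholecystokinin (-1.40 ± 0.13), and Sct, which encodes secretin (-1.11 ± 0.09), and of the simple epithelial keratin gene Krt19 (-1.30 ± 0.08). The keratin genes expressed together with Krt19 in such epithelia went the other way, Krt18 at 0.63 ± 0.13 and Krt8 at 0.51 ± 0.02, both under 2-fold. Signal genes of the gut epithelium were lower, Shh at -0.56 ± 0.04 and Ihh at -0.41 ± 0.10. Of the transcription factors of endoderm, Sox17 (0.76 ± 0.01) was positive and Hhex (-0.63 ± 0.16) negative on all arrays, whereas Foxa2 (-0.03 ± 0.07) and Hnf4a (-0.05 ± 0.10) had mixed signs. A dimmer probe of Hnf4a was positive on all arrays (0.33 ± 0.11). Fabp1, a fatty acid binding protein of liver and gut, fell by 1.22 ± 0.09, with the null pool well above background on 1 of 4 arrays. Pdx1, Otx2 and Nkx2-1, which mark more anterior endoderm or head, did not pass the brightness filter.

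Endothelial genes held 4 falls, those of the progenitor genes Etv2 and Kdr among them. Of the 21 measured genes none rose, and the median was -0.19. On all arrays 11 were negative (21.1% over all genes) and 4 positive (22%). Etv2, the ETS factor that starts blood and endothelial fate, read -1.23, -1.35, -1.54 and -1.21. Kdr, the VEGF receptor of these progenitors, read -1.38, -1.07, -1.34 and -1.08. Vwf, the clotting factor of endothelium, fell by 1.67 ± 0.07 and its second probe read -1.17. The fourth gene is Cxcl12, described above, which mesenchyme also expresses. Tal1, a factor shared by blood and endothelium, read -0.88, -0.82, -0.95 and -0.85 and stayed under 2-fold. Egfl7 (-0.58 ± 0.16), Sox18 (-0.45 ± 0.08) and Cldn5 (-0.13 ± 0.10) were negative on all arrays. The receptors Tek (0.24 ± 0.07) and Flt1 (0.39 ± 0.17) were positive, and Cdh5, the cadherin of endothelium, had mixed signs (-0.29 ± 0.33). Cxcr4, the receptor of Cxcl12, read 0.20 ± 0.19.

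Of 13 measured primitive blood genes none was called and the median was -0.09. Tal1, given above, is also on this list and was its lowest member, and Lmo2, its partner in blood progenitors, was its highest (0.42 ± 0.32). The erythroid factor Klf1 read -0.11 ± 0.07. The 6 globin probes lay between -0.22 and -0.07, all under 1.25-fold.

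Genes of the visceral endoderm, the absorptive outer layer of the yolk sac, held 5 rises among 25 measured genes, no falls, 15 positive and 2 negative members (22% positive over all genes) and a median of 0.18. In a list chosen with earlier results of these data known, 4 of 6 genes for endocytosis and transport rose. They were the amino acid transporters Slc7a7 (1.58, 1.29, 1.48 and 1.44) and Slc7a8 (1.23 ± 0.15), the cobalamin and protein receptor cubilin, Cubn (1.28 ± 0.29), and its partner amnionless, Amn (1.04 to 1.17). Dab2, an adaptor of the same receptors, read 0.76 ± 0.19, and Lrp2, or megalin, had mixed signs (0.18 ± 0.24). Of 13 plasma protein genes only Apoe rose (1.05 ± 0.02). Apoa1 (0.17 ± 0.07) and Apob (0.20 ± 0.13) were slightly positive, Ttr (0.03 ± 0.09) had mixed signs, and Afp, a hallmark yolk sac product, was lower (-0.92, -0.74, -0.89 and -0.74). The part of visceral endoderm content in these rises was not tested.

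Of 15 measured trophoblast and placenta genes 3 rose, all of the prolactin family: Prl4a1 as above, Prl2c5 (1.22 ± 0.14) and Prl2c3 (1.12 ± 0.14). Prl2c3 and Prl2c5 are closely related copies in 1 gene cluster, and their probes may share signal. Second probes read 0.76 for Prl2c3 and 0.69 for Prl2c5. Of the other measured prolactin genes, Prl3d2 (0.85 ± 0.05), Prl3d1 (0.77 ± 0.20) and Prl8a2 (0.60 ± 0.02) were positive, Prl8a2 at least 1.28-fold higher with wild type below background, and Prl3b1 (-0.09 ± 0.07) was slightly negative. Of 8 other trophoblast genes none was called. Elf5 read 0.48 ± 0.22, Rhox9 0.35 ± 0.10, Ascl2 -0.16 ± 0.10 and Plac1 -0.47 ± 0.15, and Tpbpa, Gcm1 and Ctsq did not pass the filter. The part of placental tissue in the rises was not tested.

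T (brachyury), Tbx6, Msgn1, Fgf8, Wnt3a, Hes7 and Cyp26a1, all genes of the tail bud and presomitic mesoderm, were well above background in both pools on all 4 arrays. So were the yolk sac gene Cubn and the placental gene Prl4a1, so such signal does not tell how pure the tissue was. Of 18 measured axial progenitor genes 2 fell, Cdx2 and Greb1, a nuclear hormone receptor cofactor (-1.09 ± 0.08). T read -0.07 ± 0.09 with mixed signs, and Nkx1-2 read 0.15 ± 0.05 and Sox2 0.11 ± 0.06. Epha5 (-0.46 ± 0.07) and Lin28a (-0.54 ± 0.12), which encodes an RNA-binding protein of early embryonic cells, were lower on all arrays.

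Genes of the segmentation clock and presomitic mesoderm leaned upward without any call, with a median of 0.20. On all arrays 12 of 19 were positive (22% over all genes) and 3 negative (21.1%). Mesp1, which marks newly formed mesoderm, was nearest to 2-fold, with 0.91, 1.01, 1.09 and 0.97. Hes1 (0.48 ± 0.09) and Pcdh8 (0.42 ± 0.11) were positive, and Msgn1 (-0.37 ± 0.12) and Dll3 (-0.20 ± 0.11) negative. Of 12 measured somite genes 1 rose, Aldh1a2. Dmrt2 (0.89 ± 0.17), Meox1 (0.62 ± 0.07) and Eya1 (0.56 ± 0.13) were positive on all arrays, and Tcf15 had mixed signs (0.14 ± 0.30). Snai2, a zinc finger factor of epithelial to mesenchymal transition and neural crest, rose with 1.16, 1.17, 1.30 and 1.27, whereas its relative Snai1 was lower (-0.29 ± 0.10). The neural crest factors Sox10 (0.22 ± 0.13) and Tfap2a (0.01 ± 0.16) stayed near 0.

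Neural genes did not move together. Lrrn3, which encodes a leucine-rich repeat membrane protein of neural tissue, fell by 1.43 ± 0.14, and it was the 1 gene called of 15. Zic1, a zinc finger factor of dorsal neural tube and somite, read 0.90 ± 0.07. Wild type was not well above background for Zic1, and the null pool was at least 1.83-fold higher. Gbx2 (0.70 ± 0.08) and Nkx6-2 (0.58 ± 0.16) were positive, and Ncam1 (-0.41 ± 0.10) and Neurog2 (-0.36 ± 0.11) negative. En2, a homeobox gene known from the midbrain and hindbrain border, rose by 1.14 ± 0.17. Of the node and notochord genes only Krt19 was called. Nodal read 0.69 ± 0.11, and the ciliary gene Tekt1 -0.74 ± 0.06. In the surface ectoderm list Krt23 rose, Krt5 (0.95 ± 0.13) and Wnt6 (0.73 ± 0.09) were positive, and Krt14 (0.02 ± 0.08) and Trp63 (-0.16 ± 0.07) were near 0. Lateral plate, heart and germ cell genes had no call among 18, 12 and 11 measured genes. The allantois list had a median of 0.37. On all arrays 10 of its 15 measured genes were positive (22% over all genes) and 4 negative (21.1%). Ahnak (0.95 ± 0.16), Postn (0.78 ± 0.06) and Col1a1 (0.61 ± 0.02) were positive beside Snai2. The negative ones were Bmp4 (-0.41 ± 0.06), Pitx1 (-0.31 ± 0.08), Cdh11 (-0.24 ± 0.03) and Igf1 (-0.04 ± 0.03). Vcam1 and Tbx4 did not pass the brightness filter.

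**Figure D3:**
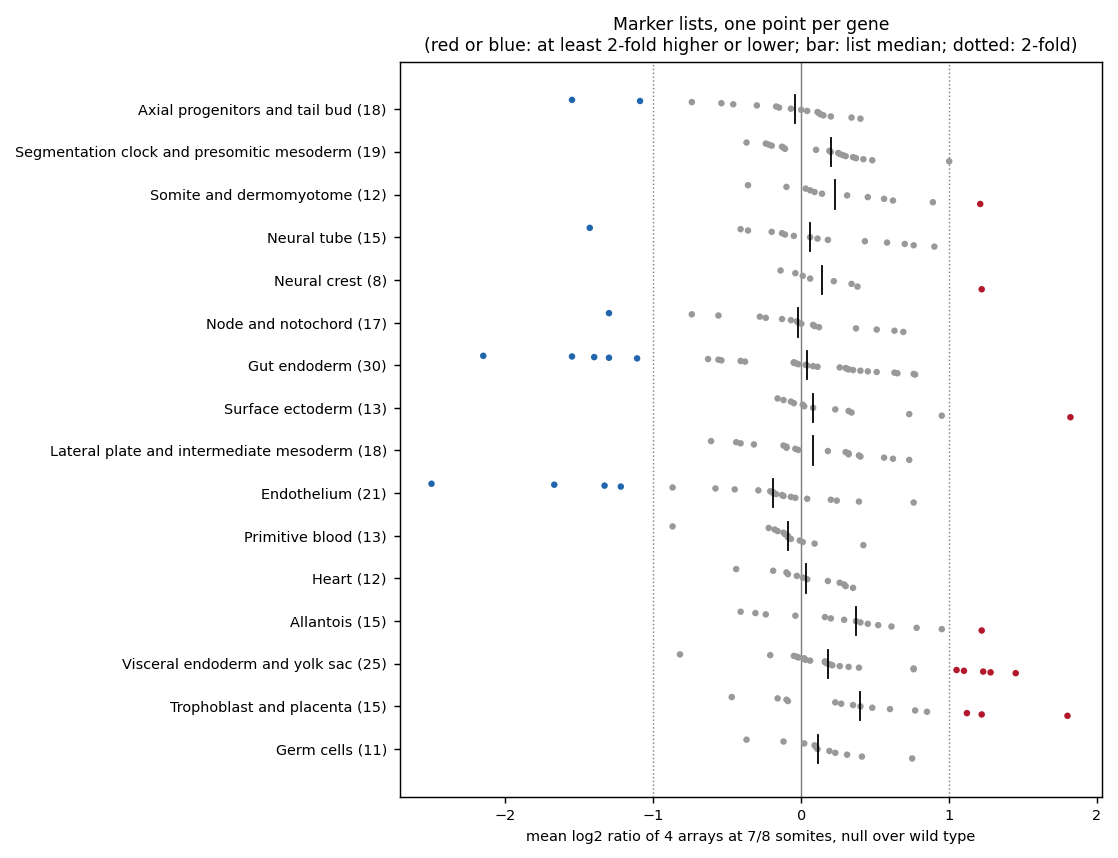
Mean log2 ratios of null over wild type at 7/8 somites for the measured genes of 16 marker lists, with 1 point per gene, the number measured in brackets and the list median as a bar. Red and blue points passed 2-fold. Blue points lie mainly in gut endoderm and endothelium and red ones in visceral endoderm and trophoblast, whereas every list median lies between -0.19 and 0.40. The lists were chosen with earlier results of these data known, so the place of the coloured points is a description, not a test. Genes shared by lists, such as Cdx2 and Krt19, are drawn in each.

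Wnt signals sustain growth at the posterior end. Of 49 measured Wnt pathway genes 1 rose and none fell, and the median was 0.12. On all arrays 26 were positive (22% over all genes) and 8 negative (21.1%). Among 15 ligands and Rspo genes, Wnt2 rose (1.05, 1.04, 1.12 and 1.11), Wnt3a, the ligand of the growth zone, was positive (0.34 ± 0.05), and Wnt5b (-0.47 ± 0.28) and Wnt3 (-0.25 ± 0.08) were negative. Of the receptors, Fzd7 read 0.82 ± 0.10 and Lrp5 -0.83 ± 0.08. Of the secreted inhibitors, Dkk3 (0.76 ± 0.10) and Notum (0.63 ± 0.14) were positive and Frzb (-0.65 ± 0.26) negative. Targets were split: Nkd1 read 0.81 ± 0.05, Sp5 0.40 ± 0.12 and Tcf7 0.30 ± 0.05, Axin2 had mixed signs (0.16 ± 0.19), and Rnf43, a ligase that removes Wnt receptors, read -1.04, -1.01, -0.99 and -0.96, with a mean just short of 2-fold (SD 0.03). Ligands, receptors and targets each held members on both sides of 0.

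Retinoic acid is made anteriorly by Aldh1a2 and cleared in the tail bud by Cyp26a1. Aldh1a2 rose, with 1.29, 1.08, 1.20 and 1.26, a mean of 1.21 ± 0.09. Cyp26a1 read -0.65, -0.84, -0.60 and -0.87. The synthetic enzyme Aldh1a2 was thus higher and Cyp26a1 lower on every array, the latter under 2-fold, whereas Cyp26b1, the other clearing enzyme measured, was positive (0.37 ± 0.18). Of 21 measured genes of the pathway, 12 were positive and 5 negative, with a median of 0.17. Rdh10, which makes retinaldehyde, read 0.43 ± 0.03. The receptor genes Rxrg (0.85 ± 0.16) and Rarb (0.60 ± 0.15) were positive and Rarg (-0.34 ± 0.20) was negative. The binding proteins differed in sign, Crabp2 at 0.43 ± 0.14 and Crabp1 at -0.65 ± 0.10. Stra8, a gene known to respond to retinoic acid, read 0.77 ± 0.08.

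In the FGF pathway Fgfbp3, a carrier that frees FGF from the matrix, rose with 1.63, 1.36, 1.51 and 1.40, the 1 call among 24 measured genes. The ligand genes of the growth zone stayed near 0, Fgf8 at 0.13 ± 0.23 with mixed signs and Fgf17 at 0.20 ± 0.11. Fgfr2 was positive (0.91 ± 0.17). Feedback genes went both ways: Dusp4 read -1.05, -0.85, -1.04 and -1.02, and Dusp6 0.54 ± 0.04. Dusp4 had a mean of -0.99 ± 0.10, just short of 2-fold. None of 32 measured BMP and TGF-beta pathway genes was called and their median was 0.02. Bmp4 (-0.41 ± 0.06) and Tgfb2 (-0.46 ± 0.09) were lower, and Id3 (0.42 ± 0.09) and Id4 (0.40 ± 0.07), targets of BMP, were higher on all arrays.

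Genes of the extracellular matrix held 4 rises and 1 fall among 41 measured, with a median of 0.24. On all arrays 24 were positive (22% over all genes) and 9 negative (21.1%). Col2a1, the main collagen of cartilage and notochord sheath, read 1.66, 1.37, 1.52 and 1.46, and its second probe, which overlaps the first, read 1.51. Col26a1 read 1.59, 1.43, 1.51 and 1.58. Of 15 collagen genes 11 were positive on all arrays, Col5a1 (0.73 ± 0.07), Col11a1 (0.69 ± 0.06) and Col4a2 (0.62 ± 0.04) among them, and Col3a1 (-0.62 ± 0.12) was negative. Adamts2, the protease that trims procollagens, rose by 1.61 ± 0.10, and its dimmer probes read 0.53 and 0.83. Ism1, a secreted protein also called isthmin, rose by 1.22 ± 0.08. Sparc (0.72 ± 0.03) was positive, in contrast to its relative Sparcl1.

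Of 28 glycolysis and hypoxia genes, all measured, none was called, and the median was -0.16. On all arrays 16 were negative (21.1% over all genes) and 4 positive (22%). Ddit4, a stress-induced inhibitor of mTOR, read -1.05, -0.89, -1.13 and -0.87, Bnip3, a hypoxia-induced mitochondrial protein, -0.74 ± 0.09, and the glycolytic enzyme gene Pgk1 -0.54 ± 0.29. Slc2a1, the main glucose transporter, was the largest exception at 0.88 ± 0.22. Of 15 amino acid transporter genes Slc7a7 and Slc7a8 rose and the other 13 lay between -0.05 and 0.37. None of 42 cell cycle genes was called and their median was 0.01; Ccnd2 read 0.58 ± 0.05. None of 21 p53 targets was called (median -0.03), with Phlda3 at 0.66 ± 0.11 and Sesn2 at -0.52 ± 0.02. A dimmer probe of Sesn2 had mixed signs (0.12 ± 0.32). None of 24 imprinted genes on the list was called, with the maternal transcript Rian at 0.60 ± 0.10. Of 37 ribosomal and nucleolar genes 1 rose, Ncl, and the other 36 lay between -0.35 and 0.40.

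Measures of sample make-up were as follows. Xist, the RNA of the inactive X chromosome, read -0.62 ± 0.24, and the Y-linked gene Kdm5d 0.23 ± 0.10, while Ddx3y and Eif2s3y had mixed signs. Of 12 early response and heat shock genes none was called, with Atf3 at 0.35 ± 0.04 and Hspa1a at -0.38 ± 0.25. Their part in the results was not tested. Between 48.3% and 59.5% of spots were well above background in the null channel and 47.6% to 57.5% in the wild type channel.

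The 4/5 somite pools, 20 other embryos per genotype of the same strain, were measured on 4 arrays, again an original pair and a technical repeat. There 34 genes were higher (0.222%) and 26 lower (0.17%) by the same rule. Of the 79 genes called at 7/8 somites, 33 were also called at 4/5 somites in the same direction, which is 41.8% of the later and 55% of the earlier calls, and 0 were called in the opposite direction. The count of 33 went to 18 with no background correction, 19 with uneven backgrounds kept and 147 with the scanner's processed signals. Of the 40 genes that rose, 37 were positive on all 4 arrays at 4/5 somites, against 22.5% of all genes, and of the 39 that fell, 37 were negative on all 4, against 21.8%. The median of the rises was 1.19 at 7/8 and 0.92 at 4/5 somites, that of the falls -1.27 and -0.79. These genes were chosen by their size at 7/8 somites, so the order of these medians is not a finding. Hoxa7 (-2.20 against -1.27), Hoxc9 (-1.84 against -1.25) and Nepn (-2.73 against -2.15) were further from 0 at 4/5 somites. For Hoxb9 the order of the stages depended on the probe, with -1.77 against -0.91 by the brighter and -1.86 against -3.06 by the dimmer one. Across all genes the stage means correlated at r = 0.609, a description over genes whose arrays share dye orders and the split into original and repeat.

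**Figure D4:**
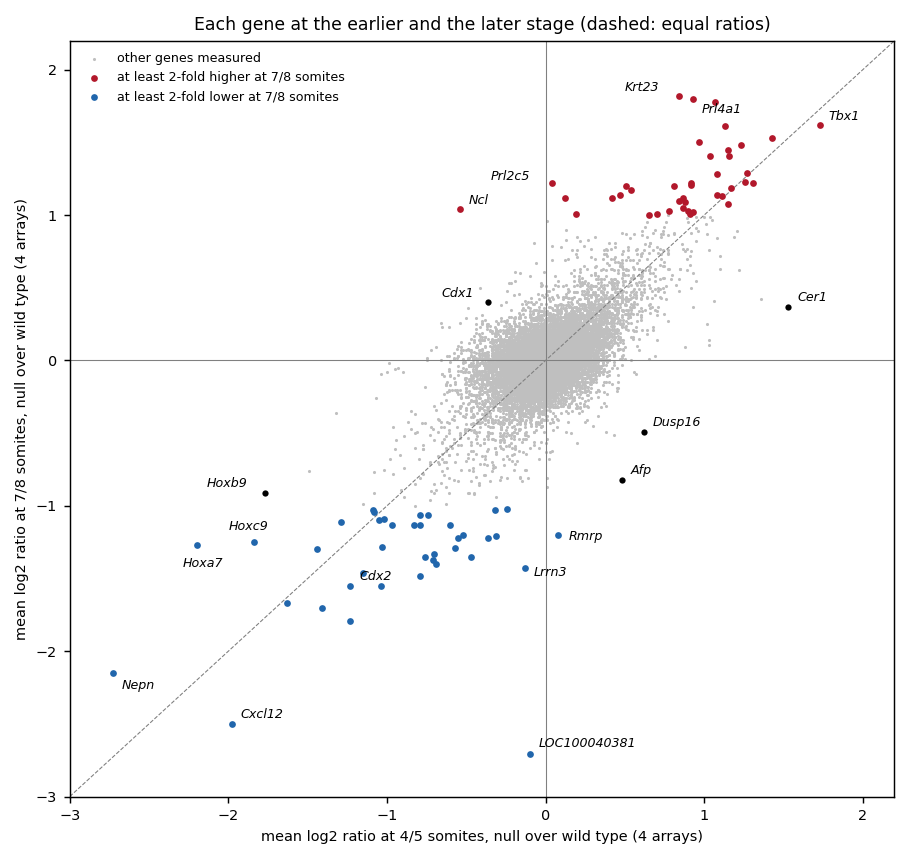
Mean log2 ratio of null over wild type at 7/8 somites (vertical axis) against that at 4/5 somites (horizontal axis) for 15282 genes; red and blue genes passed 2-fold at 7/8 somites, black ones are named without passing it. Most coloured points have the same sign at both stages, and LOC100040381, Lrrn3, Rmrp and Ncl lie far from the dashed line of equal ratios.

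The ratios of 8 genes differed by at least 2-fold between stages with no overlap of arrays, 2 higher at 7/8 somites (0.0131%) and 6 lower (0.0393%). With the scanner's processed signals these were 31 and 54. LOC100040381 read -0.16, -0.02, -0.19 and -0.04 at 4/5 somites, against a mean of -2.71 later. Its normalized log2 channel level was 9.93 in wild type and 9.83 in the null pool at 4/5 somites, and 11.72 and 9.01 at 7/8 somites. Lrrn3 read -0.13 ± 0.13 at 4/5 and -1.43 ± 0.14 at 7/8 somites, and its wild type level was 6.49 and 8.23. At 4/5 somites Lrrn3 was above background on 0 of 4 null and 2 of 4 wild type channels, so its earlier ratio is uncertain. For both genes the wild type level rose between the stages, whereas the null level of LOC100040381 fell, from 9.83 to 9.01. Rmrp, the RNA of a ribonuclease that processes mitochondrial and ribosomal RNA, went from 0.08 ± 0.04 to values between -1.38 and -1.08 on 3 arrays and at 2-fold on the other. Afp went from 0.48 to -0.82, and Dusp16, a phosphatase of MAP kinases, from 0.62 to -0.49. Cer1, a secreted inhibitor of Nodal, BMP and Wnt, went from 1.53 to 0.37, with wild type well above background on 2 of 4 arrays at the later stage.

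Ncl, which encodes the nucleolar protein nucleolin, went from -0.54 ± 0.07 to 1.04 ± 0.08, and Prl2c5 from 0.04 ± 0.08 to 1.22 ± 0.14. The 2 brightest probes of Ncl, which overlap in position on chromosome 1, showed the turn, the second one from -0.54 to about 2-fold. Its remaining probes read 0.05 and 0.09 at 7/8 and 0.08 and 0.23 at 4/5 somites, so the rise of Ncl holds for part of its probes only.

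**Figure D5:**
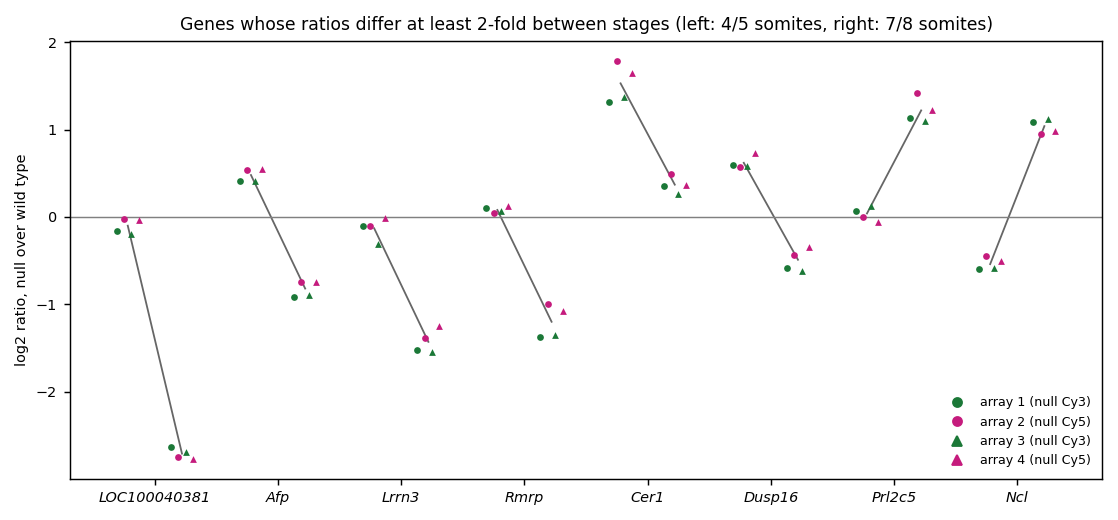
Log2 ratios of null over wild type on the 4 arrays of 4/5 somites (left points of each gene) and of 7/8 somites (right points) for the 8 genes whose ratios differ most between stages; lines join the means. LOC100040381 falls from -0.10 to -2.71 and Ncl turns from -0.54 to 1.04.

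Probes and dyes set limits on single genes. Of the 79 called genes, 19 had other probes, 23 in all. All 23 had the sign of the probe used, 6 passed 2-fold and 7 stayed under 1.25-fold, those of Clmp (0.04) and Kif26b (-0.11) among them. Among those past 2-fold, the probes of Ncl, Col2a1 and Lratd1 overlap the probe used in position. Across genes, arrays of the same dye order correlated at r = 0.872 to 0.926 and those with dyes swapped at 0.546 to 0.572. The dye orders were at least 2-fold apart for 9 genes, none of them called. Lars2, a mitochondrial aminoacyl-tRNA synthetase gene, came closest among the called genes: its arrays gave -1.60 and -1.61 in the first dye order and -0.72 and -0.59 in the other.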

How the data were processed

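RNA of the pools was labelled and hybridized to Agilent whole mouse genome arrays. Spot and background intensity values are those of the deposited scanner files, not normalized per the file headers, and the scanner's processed intensity and log10 ratio are used as alternatives. Values of the deposited series matrix are log10, null against wild type, and equal the scanner's at 45018 of 45018 spots on each array (tolerance 1e-05). Feature Extraction is version 9.5.3 in the submitters' processing notes and 10.5.1.1 in the file header. In limma 3.58.1 (R 4.3.3), mean signals were corrected with normexp (offset 50), unevenly lit backgrounds being replaced by the array median, and normalized by loess within arrays. Control spots had weight 0 and outlier spots were left out. Of 41174 probes, 21907 passed the filter, well above background for at least 1 genotype on 3 or more arrays of either stage. Probes were named through RefSeq (GRCm38.p6), 25253 by accession and 7843 by symbol or synonym; 8078 kept the files' name. The brightest probe stood for a gene, and positions are the files' (mm9). A probe below background in 1 genotype gives a bound from loess and Aquantile channel values. Genes are called by size, at least 2-fold with 1 sign on all arrays, without a test. Replicates are technical. Genes named are the Cdx genes, the 20 largest rises and falls (some are not reported here), the largest stage differences, and in each gene list up to 8 members by size and all called ones; called genes beyond these (En2, Fabp1, Lars2, Clmp and Kif26b) and some smaller list members were picked after their values were seen. The members and lists were chosen with earlier results of these data known.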

Additional observations from a re-analysis of the deposited data

Results flagged for a closer look

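Among 281 genes chosen by the rule for named genes, 18 had one sign on all 4 arrays at 7/8 somites and the opposite sign on all 4 at 4/5 somites, as had 590 of all 15282 genes. That rule takes in the genes with the largest stage differences, Ncl, Rmrp, Afp and Dusp16 among them. The count of 18 and the largest turns are thus partly set by the choice of genes. The difference between stages was not tested, since each stage had 1 pool per genotype. Cdx1, the paralogue of the mutated gene, turned from -0.36 to 0.40, a difference of 0.76. Ncl, the gene of the nucleolar protein nucleolin, had the largest turn upward of the 18 at 1.57. The yolk sac product Afp (-1.30), the ribonuclease RNA Rmrp (-1.28) and the phosphatase gene Dusp16 (-1.11) turned downward most. Genes of signalling and of the presomitic mesoderm turned upward by less, with differences of 0.65 for Sp5, a target of Wnt signals, 0.64 for the ligand gene Fgf15, 0.55 for Tgif1 and 0.53 for Tbx6, the T-box factor of presomitic mesoderm. The imprinted gene Dlk1 (0.46), the amino acid transporter genes Slc1a5 (0.37) and Slc1a4 (0.27), and the heat shock gene Dnajb1 (0.30) also turned upward. Ccng1, a target of p53 (-0.59), the transferrin receptor gene Tfrc (-0.43), the ETS factor gene Ets1 (-0.43), Tbx2 (-0.40) and the mitotic checkpoint gene Bub1 (-0.27) turned downward. Of these 18 genes only Ncl and Rmrp passed 2-fold at 7/8 somites.

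On 11 of the 281 named genes examined, 1 array stood apart from the other 3 by Dixon's criterion. With independent values chance meets this criterion in about 1 of 20 groups, so the count shows no excess. Arrays of the same dye order read alike, so that share does not strictly apply here. The array that stood apart was the highest for Cck (array 4, -1.20), Dusp4 (array 2, -0.85), Prl3d2 (array 3, 0.93), Col1a1 (array 2, 0.64) and Spata18 (array 3, 0.15). It was the lowest for Hoxd3 (array 1, -0.14), Tbx5 (array 4, -0.11), Nkx6-1 (array 4, 0.15), Sox9 (array 2, -0.01), Tnni1 (array 2, 0.07) and Slc7a1 (array 3, 0.01). The gap was widest for Nkx6-1, whose other arrays read at least 0.94, and for Sox9, whose others read 0.48 to 0.57. For Cck the array that stands apart was still past 2-fold.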

How the results depend on the processing

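All 79 called genes had the same sign under every alternative in which they were measured (72 under the stricter brightness filter), and 43 kept their call in each of the 16 alternatives in which they were measured (15 for Lratd1, Saa3 and Tbx1). Another 22 lost it in 1 or 2 and 6 in at least 5 (Lmnb1, Clmp, Lims2, Lypd6b, Ephx2 and Rprm). No called gene reversed its direction. Under the alternatives 608 named values moved, and sign changes of genes under 2-fold are not reported here. The main counts were 40 higher, 39 lower, 33 called at both stages, and 2 higher and 6 lower between stages. With no background correction 27 genes were higher and 26 lower, and 53 of the 79 kept their call. In that setting 18 genes were called at both stages and 1 was higher between stages. The scanner's processed signals gave 163 higher, 119 lower, 147 at both stages, and 31 and 54 between stages; the series matrix gave 162, 119, 146, 31 and 53. With uneven backgrounds kept, 19 genes were called at both stages and 5 were higher between stages. Median centring gave 63 higher genes and 8 higher between stages, and the mean of all probes of a gene gave 0 higher between stages. Arrays with the null pool in Cy3 alone gave 13 and 11 between stages, and those with Cy5 alone gave 6 higher. A limit of 1.5-fold gave 229, 173, 200, 90 and 63. Leaving out 1 array gave 39 to 41 higher, 35 to 42 lower, 29 to 34 at both stages, 2 to 6 higher and 6 to 8 lower between stages; the count of 2 rose to 6 without array 4 at 7/8 somites and without array 1 or 2 at 4/5 somites. Why these counts moved was not tested. No paired analysis was possible because each stage had 1 pool per genotype and replicate numbers mark arrays of the same pools. The number of pools, and dim signal in 1 pool for genes such as Saa3 and Hoxd13, limit what these sizes can show.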
